A study of Mus musculus with 15 samples.

Results

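The 7 genes described here carry the MHC class II presentation pathway in splenic regulatory T cells (Treg) of the mouse: H2-Ea, H2-Aa, H2-Ab1, H2-Eb1, Cd74, H2-DMa and Ciita. They were chosen by gene name, with their intensities on these same arrays already known, and each is read by the one transcript cluster (the array's probe set for a transcript) annotated to that gene alone. All 7 were measured, among 19752 genes in all. Because their levels were known when they were picked, the members' own differences between groups are given as a description. Values of p are given only for genes outside the 7. Counts of members called by the fit are also given, and nothing is read from them. A check for outlying arrays within a group covered the members too.

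The study compared 4 genotypes. Foxp3EGFPCreR26N1c/N1cRBPJ∆/∆ Treg (N1c_RBPJdel, 3 arrays) carry an R26 allele of active Notch1 (N1c) on both chromosomes and lack the Notch cofactor RBPJ. Foxp3EGFPCreR26N1c/N1c Treg (N1c, 4 arrays) carry the N1c alleles with RBPJ intact, and Foxp3EGFPCreRBPJ∆/∆ Treg (RBPJdel, 4 arrays) lack RBPJ without the N1c alleles. Foxp3EGFPCre Treg (control, 4 arrays) carry the Cre alone. Every group therefore carries a Cre fused to EGFP and driven by Foxp3, so recombination is limited to cells that express or have expressed Foxp3. All cells came from spleens of 6-week-old males, pooled over several mice per array, sorted as CD3+, TCRbeta+, CD4+ and GFP+. The gate removed cells bearing CD8, CD11b, CD11c, Gr1 or B220. A FACSAria was used for N1c_RBPJdel cells and a MoFlo for the 3 other groups, so the sorter and the double genotype cannot be told apart. The labels name the crossed lines but not an H2 haplotype.

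MHC class II molecules are heterodimers that show peptides from the endosomes to CD4 T cells. H2-Aa and H2-Ab1 encode the α and β chains of I-A, and H2-Ea and H2-Eb1 those of I-E. Cd74, the invariant chain, fills the groove and guides the dimer to the endosome, where H2-DM (H2-DMa with an H2-DMb chain) exchanges the remaining fragment for peptide. H2-O (H2-Oa with H2-Ob) restrains H2-DM. Ciita encodes the coactivator that RFX and NF-Y recruit to the X and Y boxes of class II promoters. B cells, dendritic cells and macrophages express the pathway strongly, while mouse T cells are known for expressing very little of it. H2-Ea is not transcribed in mice of the H2b haplotype, such as C57BL/6, because a deletion removes its promoter, and RefSeq lists it there as a transcribed pseudogene.

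RefSeq promoter windows (GRCm38.p6, 250 bases before to 50 after a gene's start) were found for 3 of the 7 members, H2-Aa, H2-Eb1 and H2-DMa, and not for H2-Ea, H2-Ab1, Cd74 and Ciita. Windows were also found for the class II genes H2-Eb2, H2-DMb1, H2-DMb2, H2-Oa and H2-Ob, which gave 9 windows of 8 genes, with 2 starts for H2-DMa. The stretches below are shown because they hold the letters that the class II regulators are known to read, in members and in relatives that were tested. Capitals mark the X box letters CAACNNATG and the Y box letters GATTGG, both searched on both strands. All 4 run 5′ to 3′ on the gene's own strand. They lie at chr17:34287847-34287932 (minus strand, H2-Aa), chr17:34305747-34305832 (plus strand, H2-Eb1), chr17:34325514-34325599 (plus strand, H2-Eb2) and chr17:34238787-34238872 (plus strand, H2-Ob).
H2-Aa: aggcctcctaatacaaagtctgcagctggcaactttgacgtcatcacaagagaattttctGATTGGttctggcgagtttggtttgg
H2-Eb1: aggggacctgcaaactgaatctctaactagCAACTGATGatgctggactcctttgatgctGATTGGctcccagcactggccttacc
H2-Eb2: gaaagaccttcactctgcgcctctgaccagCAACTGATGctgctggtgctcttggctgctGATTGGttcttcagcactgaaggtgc
H2-Ob: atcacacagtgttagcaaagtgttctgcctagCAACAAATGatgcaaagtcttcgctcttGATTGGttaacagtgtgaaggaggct
GATTGG was present in 8 of the 9 class II windows, against 16.1% of 32851 promoter windows of the same length. CAACNNATG was present in 3 of the 9, those of H2-Eb1, H2-Eb2 and H2-Ob, against 2.04% of all windows. In H2-Eb1 the X letters began 90 bases and the Y letters 60 bases before the start. In H2-Eb2 they began 131 and 101 bases before it, and in H2-Ob 86 and 58. H2-Aa held the Y letters 49 bases before its start and no match to CAACNNATG in the window. TGGGAA, the core letters read by RBPJ, was present in 3 of the 9 windows (H2-Aa, H2-Oa and H2-Ob), against 25.6% of all windows. These matches are letters in a window and not measured sites, and the motifs as searched do not overlap.

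The deposited values are intensities on a linear scale, and differences are given as log2 of tested over reference geometric means. The median intensity of an array was 107.1 to 117.2, and none of the arrays held the values of another. The sorted cells carried bright Treg and T cell transcripts in every group. Foxp3, the lineage factor of Treg, averaged 4220 in N1c_RBPJdel, 4342 in N1c, 5333 in RBPJdel and 4979 in control, and Cd3e lay between 4707 and 6664 on all arrays. Of 9 measured T cell and Treg markers, 0 passed limma's test in any of the 5 comparisons at an adjusted p below 0.05. Over all genes, 0.111% to 9.23% passed. In N1c_RBPJdel against control, 3 of the 9 differences were positive, with a median of −0.09 log2 beside 0.02 over all genes. Il2ra was lower there without overlap (−0.15 ± 0.11 log2). Against RBPJdel, Cd4 was lower (−0.60 ± 0.27) and Ctla4 higher (0.38 ± 0.17) without overlap. Rbpj fell in both groups with the deletion: the 3 N1c_RBPJdel arrays had 175, 258 and 201 and the 4 RBPJdel arrays 260, 294, 293 and 225, against 571, 472, 470 and 483 in control. The fall was −1.25 ± 0.13 log2 in N1c_RBPJdel (SE, adjusted p = 0.000124, limma) and −0.90 ± 0.12 in RBPJdel (adjusted p = 0.00213, limma). Notch1 averaged 1008 in N1c_RBPJdel, 1252 in N1c, 1326 in RBPJdel and 1227 in control. Its arrays in N1c_RBPJdel and in N1c overlapped those of control, so no rise with the N1c alleles was seen. In such bulk samples, fewer cells of a type and less RNA per cell cannot be told apart. Since each array is a pool of mice, p-values reflect the spread between pools, which may be partly technical.

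The largest difference among the chains of the class II molecules was in H2-Ea. The N1c_RBPJdel arrays had intensities of 110.0, 91.3 and 74.9 for H2-Ea, the N1c arrays 38.1, 37.5, 33.7 and 42.3, the RBPJdel arrays 42.3, 46.3, 42.3 and 46.0, and the control arrays 38.4, 40.2, 34.8 and 40.8. All 3 N1c_RBPJdel arrays lay above all 12 others, while the other 3 groups sat in a narrow band, with the 4 RBPJdel arrays just above the 4 control arrays and N1c overlapping control. The group geometric means were 91.0, 37.8, 44.2 and 38.5 in N1c_RBPJdel, N1c, RBPJdel and control. The log2 difference of N1c_RBPJdel was 1.24 ± 0.12 against control, 1.27 ± 0.12 against N1c and 1.04 ± 0.12 against RBPJdel (SE). N1c against control gave −0.03 ± 0.11, and RBPJdel against control 0.20 ± 0.11. Apart from 110.0, all H2-Ea intensities lay below the lowest array median, 107.1. The same held for every intensity of H2-Aa, H2-Ab1 and Ciita. Detection above background was not analysed, so expression at these low levels is not established.

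H2-Eb1, which encodes the β chain that pairs with the H2-Ea product, was brighter on every array of N1c_RBPJdel than on any array of the other groups. Its intensities were 207, 240.0 and 211 in N1c_RBPJdel, 156, 148, 165 and 185 in N1c, 138, 189, 176 and 164 in RBPJdel, and 150.3, 153, 184 and 165 in control. The geometric mean was 219 in N1c_RBPJdel, against 163 in N1c, 165 in RBPJdel and 162 in control, and the arrays of those 3 groups overlapped one another. N1c_RBPJdel differed by 0.43 ± 0.12 log2 against control, 0.43 ± 0.12 against N1c and 0.40 ± 0.12 against RBPJdel.

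The I-A chains differed between groups by less than H2-Ea, and H2-Ab1 differed by more than H2-Aa. H2-Ab1 had intensities of 93.0, 89.7 and 73.1 in N1c_RBPJdel, 43.8, 43.3, 55.5 and 60.7 in N1c, 47.0, 68.2, 70.6 and 63.1 in RBPJdel, and 51.2, 47.1, 68.5 and 63.8 in control. The lowest N1c_RBPJdel array, 73.1, stood just above the highest RBPJdel array, 70.6, and the N1c, RBPJdel and control arrays overlapped. For H2-Ab1 the log2 difference of N1c_RBPJdel was 0.57 ± 0.17 against control, 0.75 ± 0.17 against N1c and 0.46 ± 0.17 against RBPJdel. H2-Aa had 64.0, 62.4 and 62.1 in N1c_RBPJdel, 46.3, 38.0, 51.8 and 51.8 in N1c, 48.3, 53.7, 51.2 and 64.2 in RBPJdel, and 50.2, 51.8, 65.1 and 68.2 in control. For H2-Aa the N1c_RBPJdel arrays fell inside the control range and above every N1c array. The log2 difference of N1c_RBPJdel was 0.11 ± 0.14 against control and 0.43 ± 0.14 against N1c, and N1c against control gave −0.32 ± 0.13.

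**Figure D1:**
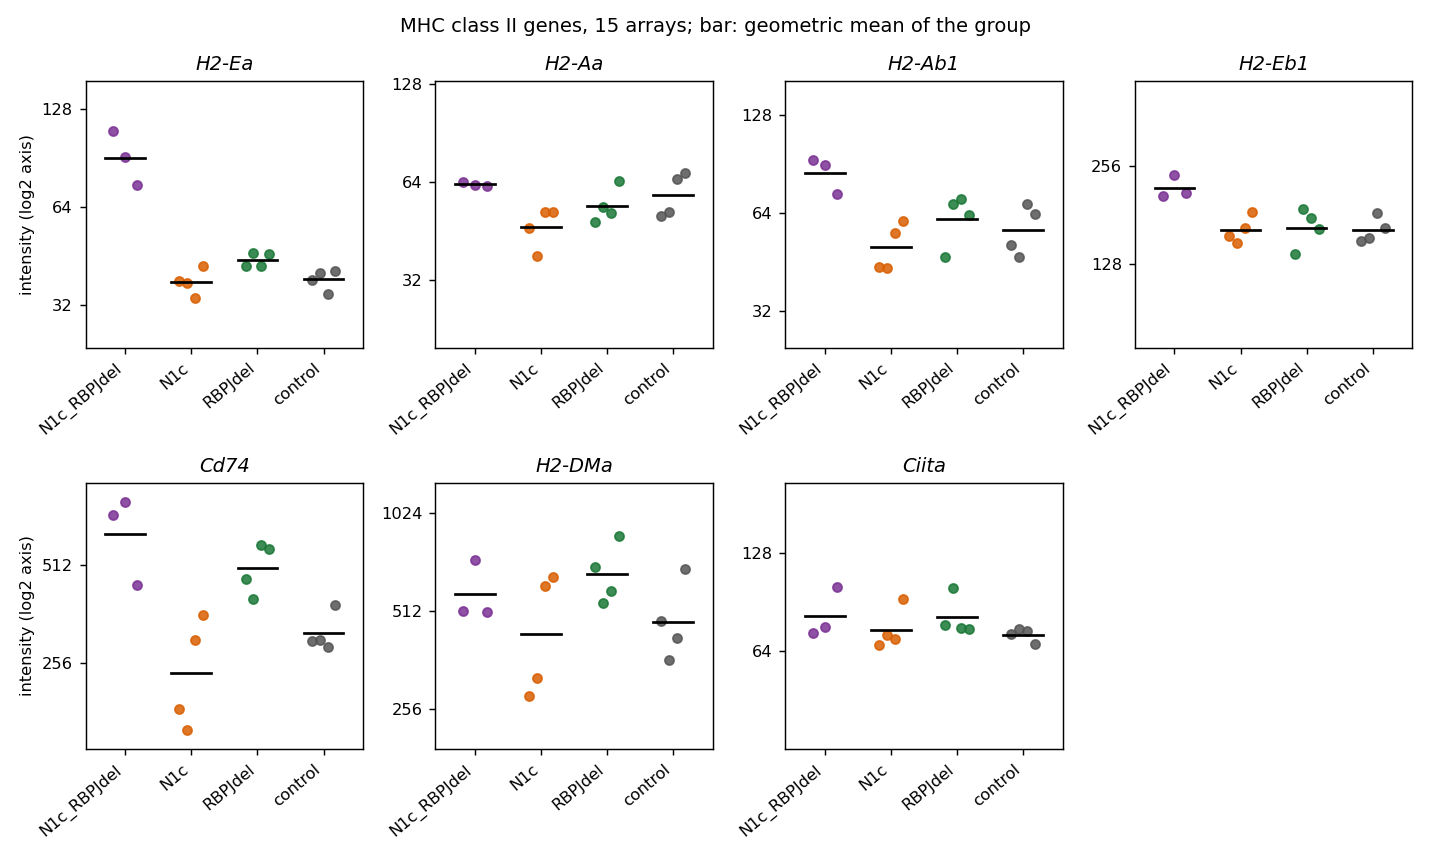
Intensity (log2 axis) of the 7 MHC class II genes on each of 15 arrays, with N1c_RBPJdel left of N1c, RBPJdel and control; each point is an array and each bar the geometric mean of the group. H2-Ea, H2-Ab1 and H2-Eb1 show all 3 N1c_RBPJdel points above the 12 others, for H2-Ab1 by a small margin. Cd74 and H2-DMa show N1c arrays in an upper and a lower pair.

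Cd74, the invariant chain, had the widest spread of group means, 1.42 log2 between N1c_RBPJdel and N1c. Its intensities were 725, 795 and 445 in N1c_RBPJdel, 185, 159, 301 and 359 in N1c, 464, 401, 588 and 573 in RBPJdel, and 298, 300.2, 286 and 384 in control. All arrays of N1c_RBPJdel and of RBPJdel lay above all control arrays, and those 2 groups overlapped each other. The N1c arrays split, with numbers 1 and 2 below all control arrays and numbers 4 and 5 within the control range. The log2 difference of N1c_RBPJdel was 1.01 ± 0.25 against control, 1.42 ± 0.25 against N1c and 0.34 ± 0.25 against RBPJdel. RBPJdel against control gave 0.67 ± 0.23, and N1c against control −0.41 ± 0.23.

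H2-DMa, the α chain of the peptide exchange factor, followed another order, with its highest geometric mean in RBPJdel. Its intensities were 512, 736 and 510.0 in N1c_RBPJdel, 282, 320, 612 and 653 in N1c, 703, 543, 590 and 869 in RBPJdel, and 479, 362, 424 and 690.2 in control. Every pair of groups overlapped, and the N1c arrays split as for Cd74. RBPJdel against control gave a log2 difference of 0.49 ± 0.26, that of N1c_RBPJdel against control 0.28 ± 0.28, and that of N1c_RBPJdel against RBPJdel −0.20 ± 0.28.

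Ciita, the coactivator gene, varied no more between groups than within them. Its intensities were 72.9, 75.9 and 101 in N1c_RBPJdel, 66.9, 72.0, 69.7 and 92.7 in N1c, 77.1, 100.1, 75.6 and 75.1 in RBPJdel, and 72.2, 75.1, 73.7 and 67.2 in control. A single array was high in each of N1c_RBPJdel, N1c and RBPJdel, and the remaining arrays overlapped the controls. The log2 difference of N1c_RBPJdel against control was 0.19 ± 0.14, and the spread of the 4 group means, 0.19 log2, matched the pooled SD within groups, 0.19. For H2-Ea the same spread was 1.27 against a pooled SD of 0.15.

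**Figure D2:**
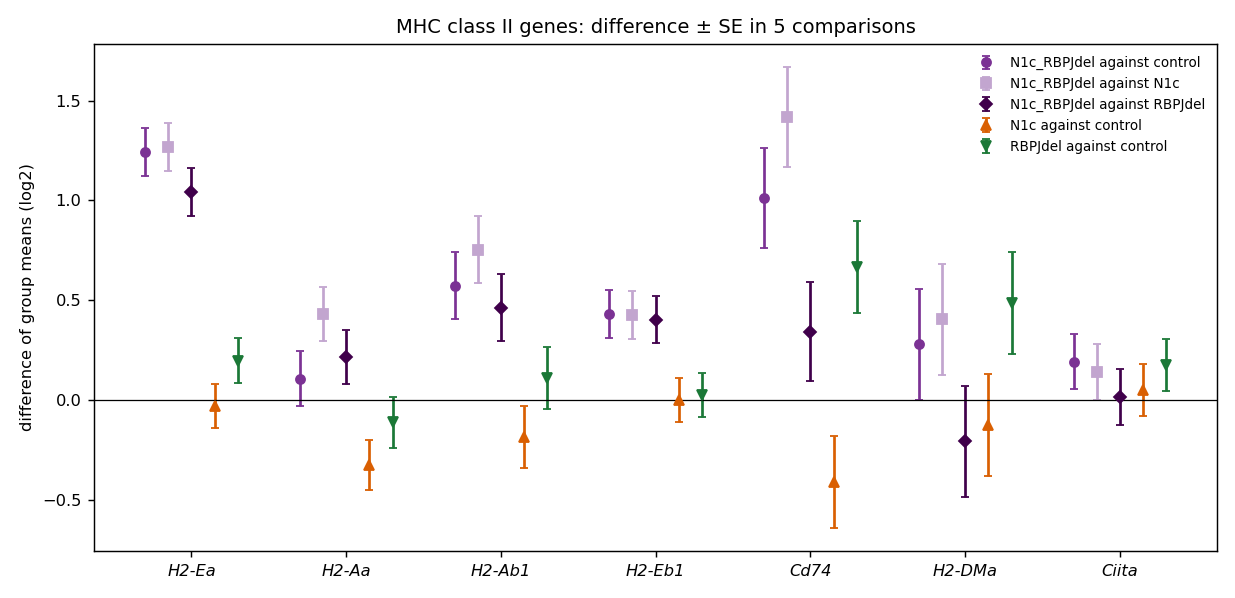
Log2 difference ± SE of the 7 MHC class II genes in 5 comparisons. For H2-Ea, all 3 differences that involve N1c_RBPJdel lie above 1 log2, and for Ciita every point lies within 0.2 of 0.

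Counted by the fit over all genes, 4 of the 7 members were called in N1c_RBPJdel against control (H2-Ea, H2-Ab1, H2-Eb1 and Cd74, all higher), where 8.9% of all genes were called. The same 4 genes were called, all higher, in N1c_RBPJdel against N1c, where 9.23% of genes were called. In N1c_RBPJdel against RBPJdel, H2-Ea was called, and 2.29% of genes were. In N1c against control 0 of 7 members were called by limma, with 1 of 7 at an unadjusted p below 0.05 and 1.65% of genes called. In RBPJdel against control 0 of 7 were called, with 1 of 7 at an unadjusted p below 0.05 and 0.111% of genes called. Over all 19752 genes, 1621 had an unadjusted p below 0.05 in N1c against control and 1331 in RBPJdel against control. Since the members were chosen on these arrays, nothing is read from those counts. The median difference of the 7 was 0.43 log2 in N1c_RBPJdel against control, beside 0.02 over all genes, and −0.12 in N1c against control, beside −0.01 over all genes. The comparisons against control share the control arrays, and the comparisons of N1c_RBPJdel share its 3 arrays.

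N1c and control arrays carried numbers 2, 4 and 5 in common. Their deviations from the group means correlated within a number (0.417, 0.341 and 0.497), so the differences are also given pair by pair. Correlations between arrays of different numbers were not computed, so a link by number is not established. For H2-Aa the N1c array lay below the control array in all 3 pairs, by −0.40, −0.33 and −0.40 log2. H2-Ab1 was also lower in all 3, by −0.24, −0.30 and −0.07. Cd74 gave −0.90, 0.07 and −0.10, so that 1 pair of the 3 was clearly apart. The N1c array numbered 1, also low for Cd74, has no control array of its number. H2-DMa gave −0.58, 0.53 and −0.08, with pairs on both sides of 0. With the replicate number as a block, 494 genes were called in N1c against control, against 326 without it, and 0 members in both fits.

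**Figure D3:**
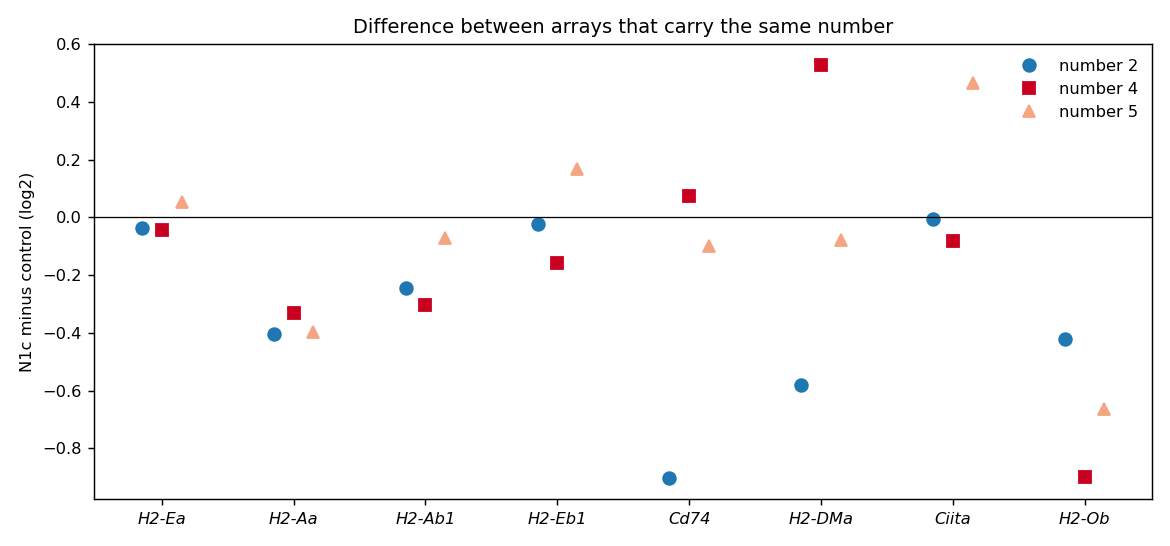
Log2 difference of the N1c array minus the control array with the same number (2, 4 and 5) for the 7 MHC class II genes and H2-Ob. H2-Aa, H2-Ab1 and H2-Ob lie below 0 in all 3 pairs, and Cd74 and H2-DMa lie on both sides of 0.

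Across the 15 arrays H2-Ab1 and H2-Eb1 were the pair of members most alike (Pearson r = 0.90, Spearman rho = 0.88), and r was 0.83 over the 12 arrays without N1c_RBPJdel. Cd74 and H2-DMa had an r of 0.76 over 15 arrays and 0.86 over those 12. The r of H2-Ea with H2-Eb1 was 0.77 over 15 arrays and 0.16 over the 12, and with H2-Ab1 0.76 and 0.31, so that likeness rested on the 3 N1c_RBPJdel arrays. With Cd74 its r was 0.72 over 15 arrays and 0.65 over the 12, with H2-DMa 0.25 and 0.49, and with Ciita 0.27 and 0.60. Ciita had an r of 0.10 to 0.43 with the other members over 15 arrays and of −0.01 to 0.60 over the 12. These correlations are descriptions; arrays of a group share its genotype and sorter, and no test is given.

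The relatives outside the 7 were tested. H2-Ob, the β chain of H2-O, fell in N1c against control by −0.66 ± 0.13 log2 (SE, adjusted p = 0.0126, limma). Its intensities were 440.2, 529, 504 and 621 in N1c, against 708, 695, 942 and 984 in control, with every N1c array below every control array. It was lower in all 3 pairs of the same number, by −0.42, −0.90 and −0.66. The adjusted p lay between 0.00228 and 0.0611 over 22 alternative settings, at 0.0551 without N1c array 1 and 0.0611 without control array 4, and the call was also lost with only the 2 groups fitted. H2-Ob had 796, 618 and 599 in N1c_RBPJdel and 914, 883, 837 and 832 in RBPJdel; neither group's difference from control was called (−0.30 ± 0.14 and 0.08 ± 0.13). N1c_RBPJdel against N1c gave 0.36 ± 0.14 (adjusted p = 0.128, limma, and 0.0152 with the replicate number as a block). N1c_RBPJdel and N1c were not treated as paired by number, as their deviations within a number correlated at −0.12 and 0.06.

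H2-Oa, the α chain of H2-O, was called in none of the 5 comparisons, and 1 of them, RBPJdel against control, had an unadjusted p below 0.05 (0.52 ± 0.18 log2, adjusted p = 0.571, limma). H2-Eb2, a class II β chain gene beside H2-Ea, was not called either without the block. Its intensities were 53.2, 61.8 and 60.9 in N1c_RBPJdel, 41.4, 44.3, 51.2 and 51.6 in N1c, 52.1, 55.7, 50.9 and 48.7 in RBPJdel, and 48.4, 46.9, 50.9 and 52.3 in control. The N1c_RBPJdel arrays were the highest against N1c and control, by 0.32 ± 0.10 (adjusted p = 0.057, limma) and 0.24 ± 0.10 (adjusted p = 0.144, limma). With the replicate block both were called (adjusted p of 0.0246 and 0.0474), and the difference from N1c also without N1c array 5 (0.0331). N1c_RBPJdel was not treated as paired by number with N1c or control. Its deviations within a number correlated at −0.12 and 0.06 with N1c, and at 0.24 and −0.05 with control. H2-DMb1 and H2-DMb2, the β chains of H2-DM, share a cluster that names both and were not part of the fit. That cluster had 114, 135 and 140.3 in N1c_RBPJdel, 70.1, 85.5, 77.0 and 100.3 in N1c, 77.3, 88.6, 93.4 and 83.9 in RBPJdel, and 79.3, 77.2, 83.0 and 87.5 in control. All 3 N1c_RBPJdel arrays lay above the 12 others, unlike those of H2-DMa.

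On either side of H2-Ea, RefSeq lists H2-Eb2, H2-Eb1, H2-Aa, H2-Ab1 and Gm20506, and Btnl2, Btnl1, Gm15321, BC051142 and Btnl4. Gm20506, Gm15321 and Btnl4 had no cluster that named them alone. The butyrophilin-like neighbour Btnl2 had 103, 74.0 and 102 in N1c_RBPJdel and 79.6, 84.5, 100.1 and 96.2 in control, which overlapped. Btnl1 had 53.1, 46.0 and 60.8 in N1c_RBPJdel and 46.0, 46.0, 48.0 and 40.4 in control, and BC051142 had 35.0, 42.8 and 41.5 against 37.0, 38.1, 48.6 and 38.8. The neighbours on the Btnl2 side thus overlapped between N1c_RBPJdel and control, where H2-Ea itself did not.

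Of 8 genes for antigen processing and class II turnover, Lgmn changed. Lgmn encodes legumain, a lysosomal protease that cuts after asparagine. Its intensities were 815, 902 and 704 in N1c_RBPJdel, 480.4, 521, 608 and 643 in N1c, and 539, 549, 567 and 754 in RBPJdel, against 193, 194, 230.4 and 238 in control. Every array of the 3 mutant groups lay above every control array. Lgmn rose by 1.91 ± 0.14 log2 in N1c_RBPJdel (adjusted p = 1.17e-06), 1.39 ± 0.13 in N1c (adjusted p = 3.87e-06) and 1.49 ± 0.13 in RBPJdel (adjusted p = 3.65e-05, all limma). N1c_RBPJdel against N1c gave 0.52 ± 0.14 (adjusted p = 0.0275, limma), which lay above 0.05 with N1c_RBPJdel array 1 or 2, or N1c array 1 or 2, left out, or with only the 2 groups fitted (range 0.000696 to 0.0883). The other 7 processing genes (Ctss, Ctsl, Ctsb, Ifi30, Marchf1, Marchf8 and Sppl2a) were called in no comparison. Ifi30, the thiol reductase of the endosome, had 417, 387, 410 and 437 in RBPJdel, against 315, 301, 271 and 319 in control, with no overlap (0.45 ± 0.13 log2, adjusted p = 0.47, limma).

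**Figure D4:**
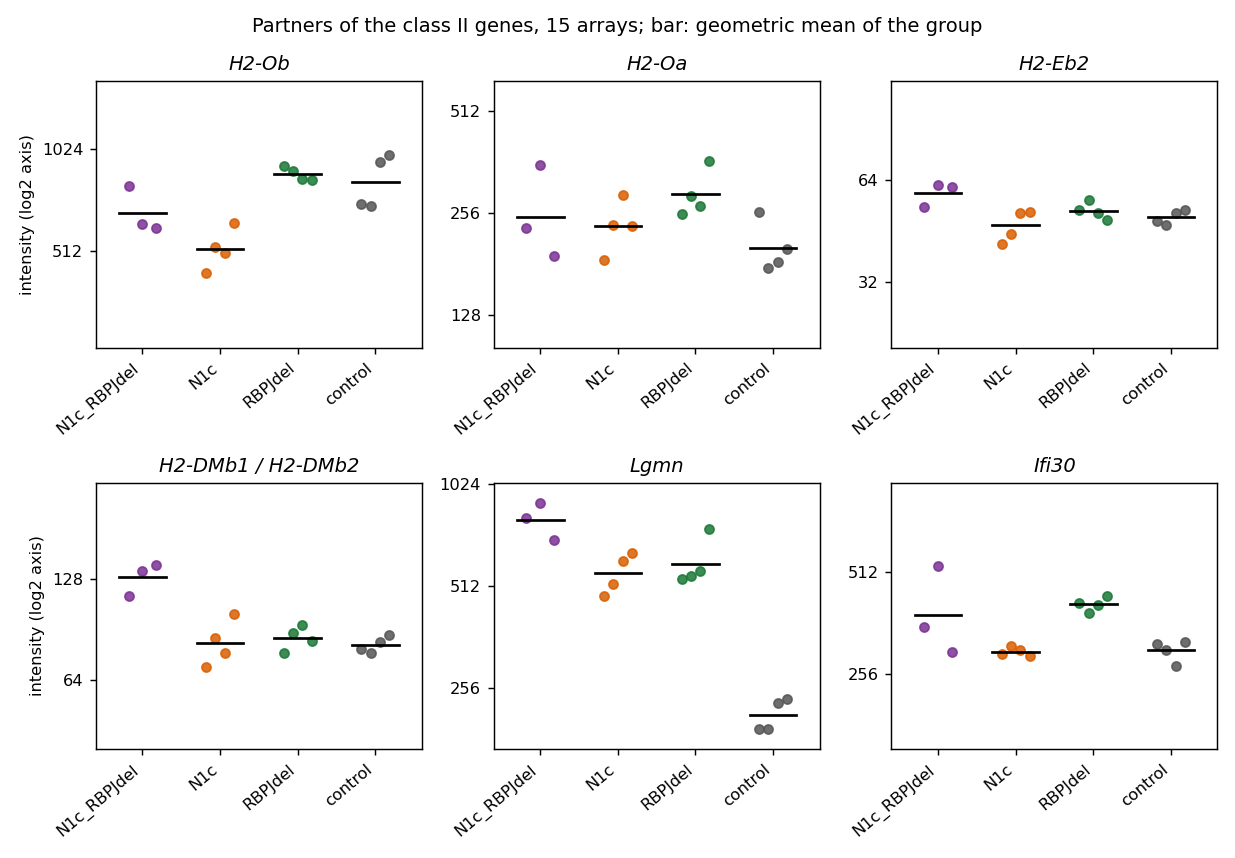
Intensity (log2 axis) of partners of the class II genes on each of 15 arrays, with N1c_RBPJdel left of N1c, RBPJdel and control; points are arrays and bars geometric means. H2-Ob is lowest in N1c, the cluster of H2-DMb1 and H2-DMb2 is highest in N1c_RBPJdel, and Lgmn is higher in all 3 mutant groups than in control.

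The transcripts of genes for class II transcription, Rfx5, Rfxap, Rfxank, Nfya, Nfyb, Nfyc, Creb1 and Zxdc, were all measured. In each of the 5 comparisons 0 of these 8 genes were called by limma, and 0 to 2 of 8 had an unadjusted p below 0.05. Over all 19752 genes, 0.111% to 9.23% were called and 1331 to 5227 had an unadjusted p below 0.05. Zxdc, a zinc finger partner of CIITA in human cells, had the lowest adjusted p, in N1c_RBPJdel against control (−0.32 log2, adjusted p = 0.0834, limma). Of 9 measured genes of class I presentation, 1 was called: Nlrc5, the class I counterpart of Ciita, was lower in N1c_RBPJdel than in RBPJdel (−0.48 ± 0.12, adjusted p = 0.043, limma), where 2.29% of all genes were called. Its arrays overlapped, at 1771, 2234 and 1661 in N1c_RBPJdel and 2874, 2833, 2643 and 2136 in RBPJdel, and the call was lost under 15 of 21 alternatives (adjusted p 0.00809 to 0.305, limma), among them leaving out N1c_RBPJdel array 1 or 3 or RBPJdel array 1, 2 or 3. Of 11 measured genes of the interferon gamma response, 1 was called, Irf8 in N1c_RBPJdel against control (0.84 ± 0.17, adjusted p = 0.00758, limma), a share close to the 8.9% of all genes called there. Irf8, a transcription factor of T, B and myeloid cells, had 431, 709 and 450 in N1c_RBPJdel, against 351, 287, 232 and 296 in control, and its call was lost with only the 2 groups fitted (adjusted p = 0.053).

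Markers of cells that express class II strongly were set beside the members. Of 14 measured B cell markers, 6 rose in N1c_RBPJdel against control and 0 fell, where 8.9% of all genes were called in either direction. The 6 were Cd79a, Ms4a1, Cr2, Bank1, Fcrla and Cd22. Against N1c, 6 rose and 1 fell, where 9.23% of all genes were called. The gene that fell was Cd22 (−3.27 log2, adjusted p = 4.82e-09, limma). Against RBPJdel, 4 rose and 0 fell, where 2.29% of all genes were called. They were Cd79a, Ms4a1, Fcrla and Cd22 (1.12 log2 for Cd22, adjusted p = 0.00613, limma). Cd79a, Ms4a1 and Fcrla also rose against N1c, as did Cr2 and Bank1. The Cr2 call against N1c was lost under 4 of 20 alternatives. Cd79a, a chain of the B cell receptor, had 69.9, 57.5 and 50.1 in N1c_RBPJdel, 23.7, 26.0, 29.9 and 34.5 in N1c, 32.6, 39.3, 33.0 and 28.8 in RBPJdel, and 29.5, 32.6, 34.3 and 36.3 in control. All 3 N1c_RBPJdel arrays lay above the others (0.83 ± 0.14 log2 against control, adjusted p = 0.00413, limma). Ms4a1, which encodes CD20, had 84.9, 50.4 and 44.2 in N1c_RBPJdel and at most 35.8 elsewhere (0.95 ± 0.17 against control, adjusted p = 0.00512, limma, and 0.0501 with only the 2 groups fitted). On the 3 N1c_RBPJdel arrays the B cell markers did not share one order: Cd79a and Ms4a1 ran from array 1 down to array 3, as H2-Ea did. Bank1, at 99.6, 127 and 110, and Cd79b, at 378, 656 and 324, were highest on array 2, as were H2-Eb1 and Cd74. Fcrla, at 71.5, 60.4 and 62.2, was lowest on array 2, as was Cr2, at 55.0, 38.4 and 56.4. Some of these gaps are small, such as 60.4 against 62.2 for Fcrla. The orders rest on 3 arrays and were not tested. Against RBPJdel the calls of Cd79a, Ms4a1 and Fcrla were lost without N1c_RBPJdel array 1, at adjusted p of 0.0614, 0.0542 and 0.121 (limma). The calls of Fcrla against control and N1c were lost without the same array (adjusted p of 0.0508 and 0.0541), and those of Ms4a1 and Fcrla against RBPJdel also without RBPJdel array 3. The calls of Cr2 and Bank1 against control were lost under 9 of 20 alternatives each, and that of Cd22 under 2 of 21. Ebf1, a B cell transcription factor, rose against N1c alone (0.46 ± 0.13, adjusted p = 0.0332, limma), and that call was lost under 8 of 20 alternatives.

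Summed over 13 B cell markers, the level was 1134 to 1418 in N1c_RBPJdel, 908 to 968 in N1c, 1078 to 1218 in RBPJdel and 972 to 1039 in control. Cd22 was left out of that sum because it rose by 4.00 ± 0.16 log2 in N1c against control (adjusted p = 6.24e-11, limma). N1c_RBPJdel and RBPJdel lay above control on every array and N1c below control on every array. The largest part of the sum was Cd79b, which averaged 432 in N1c_RBPJdel, 320 in N1c, 457 in RBPJdel and 376 in control and was called in no comparison. In RBPJdel against control, Cd79a, Ms4a1 and Fcrla differed by 0.01, 0.03 and 0.04 log2, Cd79b by 0.28 and Bank1 by 0.51, none of them called. The B cell markers' part in the class II differences was not tested.

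Of 13 dendritic cell markers, 0 were called in N1c_RBPJdel against control by limma, with 4 at an unadjusted p below 0.05. Over all 19752 genes, 8.9% were called there and 5207 had an unadjusted p below 0.05, so nothing is read from those counts. The differences of the dendritic cell markers were positive for 11 of the 13, with a median of 0.15 log2 beside 0.02 over all genes. Clec9a was called against N1c (0.76 ± 0.20, adjusted p = 0.0229, limma), where 9.23% of all genes were called. That call was lost when N1c_RBPJdel array 1 or 3 or N1c array 2 or 4 was left out (adjusted p 0.0547 to 0.134), and with only the 2 groups fitted. Clec9a, a receptor of cross-presenting dendritic cells, had 50.9, 24.0 and 42.6 in N1c_RBPJdel and 23.2, 20.8, 19.7 and 24.8 in N1c. The dendritic cell sum, most of it Cst3, was 2251 to 2766 in N1c_RBPJdel, 1877 to 2117 in N1c, 2095 to 2516 in RBPJdel and 1776 to 2181 in control. The part of dendritic cells was not tested.

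Markers of neutrophils, red cells, other myeloid cells and CD8 T or NK cells were read in the same way, beside 8.9%, 9.23% and 2.29% of all genes called in N1c_RBPJdel against control, N1c and RBPJdel. Of 8 neutrophil markers, S100a9, Ngp and Mmp9 rose in N1c_RBPJdel relative to all 3 other groups, and Retnlg rose against N1c (0.62 ± 0.15, adjusted p = 0.0159, limma), a call lost without N1c_RBPJdel array 3 and with only the 2 groups fitted. The sum over the 8 was 605 to 743 in N1c_RBPJdel, 399 to 490 in N1c, 430 to 473 in RBPJdel and 425 to 536 in control. Without N1c_RBPJdel array 1, the calls against RBPJdel of Ngp, Mmp9 and Slc4a1 were lost, at adjusted p of 0.0611, 0.0591 and 0.18 (limma). Ngp against RBPJdel was also lost without RBPJdel array 1 or 3. Slc4a1 against RBPJdel (adjusted p = 0.043, limma) was lost under 9 of 21 alternatives in all, among them leaving out N1c array 2 or 4, RBPJdel array 1, 3 or 4, or control array 2 or 3. Mmp9 against control was lost without N1c_RBPJdel array 1 or 2 or control array 2 or 3 (adjusted p at most 0.0919), and against N1c without N1c_RBPJdel array 1 or 2 or N1c array 2 (at most 0.0757). Of 4 measured erythroid markers, Car1 and Slc4a1 rose against each other group. Car1, a carbonic anhydrase of red cells, had 852, 400.0 and 137 in N1c_RBPJdel and at most 75.3 elsewhere (2.58 ± 0.37 log2 against control, adjusted p = 0.0018, limma). The erythroid sum was 456 to 1225 in N1c_RBPJdel, 300 to 358 in N1c, 314 to 394 in RBPJdel and 298 to 335 in control. Hemoglobin clusters name several genes and entered no comparison. One that names Hba-a1 and Hba-a2 had 2806, 1400.1 and 1401 in N1c_RBPJdel and 114 to 520 on the other arrays. One that names 4 β globin genes, among them Hbb-b1, had 2179, 649.7 and 1019 in N1c_RBPJdel and 96.8 to 358 on the others.

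Myeloid markers, which include genes of class II-expressing macrophages, were mostly higher in N1c_RBPJdel than in control. There 11 of the 14 differences were positive, with a median of 0.21 log2 beside 0.02 over all genes. Against RBPJdel 13 of the 14 were positive, and against N1c 10. Calls of N1c_RBPJdel went in both directions only against N1c, with 2 higher and 1 lower. Of 14 such markers, Fcer1g rose in N1c_RBPJdel against all 3 groups, by 0.69 ± 0.12 against control (adjusted p = 0.00467, limma). Lyz2, the lysozyme of macrophages and neutrophils, rose against N1c (0.92 ± 0.24, adjusted p = 0.0235, limma), a call lost without N1c_RBPJdel array 1 or 3 or N1c array 2, and with only the 2 groups fitted. Cebpa, a myeloid transcription factor, was lower in N1c_RBPJdel than in N1c (−0.68 ± 0.10, adjusted p = 0.00036, limma). It averaged 96.7 in N1c_RBPJdel, 155 in N1c and 98.8 in control. Cebpa and Cybb, a subunit of the phagocyte oxidase, rose in N1c against control, by 0.65 ± 0.09 (adjusted p = 0.00036, limma) and 0.86 ± 0.17 (adjusted p = 0.00978, limma). The myeloid sum was 1319 to 1414 in N1c_RBPJdel, 1503 to 1572 in N1c, 1074 to 1186 in RBPJdel and 1063 to 1309 in control. By group mean its largest part was Cybb, at 393 in N1c_RBPJdel, 565 in N1c, 300 in RBPJdel and 312 in control. Of 5 markers of CD8 T and NK cells, Klrk1 rose in N1c_RBPJdel against control (0.63 log2, adjusted p = 0.0159, limma, and 0.0506 without control array 3 and 0.0517 with only the 2 groups fitted). It also rose against N1c (adjusted p = 0.0146, limma), a call lost without N1c array 2 (0.0517) and with quantile or cyclic loess normalization. Their sum was 694 to 754 in N1c_RBPJdel, 564 to 767 in N1c, 706 to 868 in RBPJdel and 598 to 800 in control. The part of these cell types in the class II differences was not tested.

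**Figure D5:**
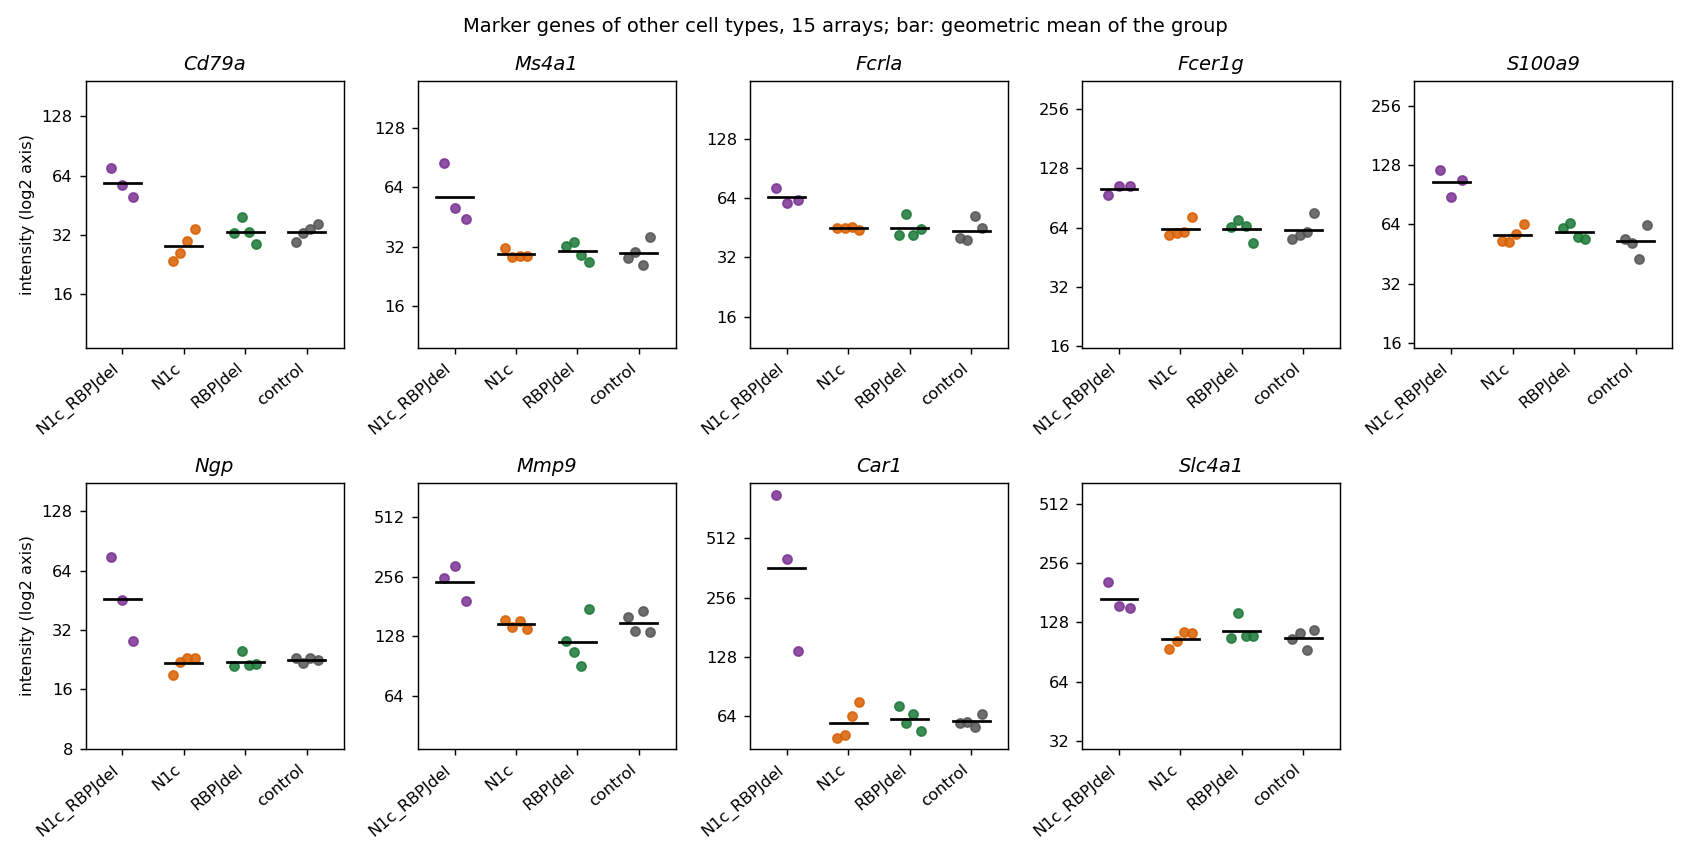
Intensity (log2 axis) of 9 marker genes of B, myeloid, neutrophil and erythroid cells on each of 15 arrays, with N1c_RBPJdel left of N1c, RBPJdel and control; points are arrays and bars geometric means. The 9 are the markers that limma called in N1c_RBPJdel against each of the 3 other groups, with Cd22 left out. Markers of these lists without all 3 calls are not shown. In each panel the 3 N1c_RBPJdel arrays lie above the 12 others, which largely follows from that choice, with Car1 at 852, 400.0 and 137.

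The genes most like H2-Ea over the 15 arrays, members left out, were Olfr325 (Pearson r = 0.97), Lcn2 (0.96), Olfr353 (0.95), Csf3r (0.95) and Jchain (0.94), with Spearman rho of 0.59 to 0.95. Over the 12 arrays without N1c_RBPJdel their r was 0.53, 0.56, 0.80, 0.64 and 0.15. Olfr325, named as an olfactory receptor, had 37.9, 32.1 and 30.1 in N1c_RBPJdel and 19.3 to 23.5 elsewhere. Olfr353, also named as an olfactory receptor, had 54.4, 38.6 and 36.7 in N1c_RBPJdel and 22.8 to 29.5 elsewhere. Lcn2, a neutrophil granule protein, had 101, 102 and 81.2 in N1c_RBPJdel and 61.5 to 70.7 elsewhere. All 5 genes lay below the lowest array median, 107.1, on every array. Jchain, the joining chain of secreted antibody, had 72.5, 54.5 and 44.7 in N1c_RBPJdel and 19.4 to 28.3 elsewhere. The genes most like the mean of H2-Aa, H2-Ab1, H2-Eb1 and Cd74 were others: Pon3, Nr1d1, Rora, Fbxo31 and Gna15, with r of 0.91 over 15 arrays for each. These kept an r of 0.80 to 0.88 over the 12 arrays without N1c_RBPJdel. Nr1d1, a nuclear receptor of the circadian clock, had 404, 510.3 and 295 in N1c_RBPJdel, 184, 172, 187 and 254 in N1c, 240, 302, 282 and 256 in RBPJdel, and 240.3, 211, 261 and 252 in control. Likeness was ranked over all 19752 genes and carries no test.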

How the data were processed

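Treg RNA from each pool of mice was read on one whole-transcript Affymetrix mouse array. The deposited values are linear intensities that the authors summarised by RMA (Affymetrix Power Tools), as stated in the submitters' processing notes. Tool versions, annotation release and build: not given in the sources used here. They were converted to log2 and otherwise used as deposited. Of 24922 clusters, 21425 name 1 gene; the brightest cluster per gene was kept, which left 19752 genes with no filter on low values. The number of arrays limits the precision. One limma 3.58.1 fit (R 4.3.3) over the 4 groups and 15 arrays gave 5 comparisons, with Benjamini-Hochberg adjustment over all genes and a threshold of 0.05. The code was tested on simulated data.

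The members and all gene lists were chosen with earlier results of these data known. Named genes are the 7 members, all class II relatives, processing and transcription genes, called members of the other lists, the brightest of the marker lists, Rbpj, Notch1 and Foxp3 as checks, the 5 neighbours on either side of H2-Ea and the 5 genes most like each pattern. Groups and numbers come from the sample titles. Deviations from group means correlated at 0.417, 0.341 and 0.497 between N1c and control arrays numbered 2, 4 and 5, so those were treated as paired. Other groups were not paired by number (−0.12 to 0.457). At number 4, RBPJdel correlated at 0.457 with N1c and at 0.417 with control. Arrays of different numbers were not compared in this way. Alternatives were quantile and cyclic loess normalization, the mean of a gene's clusters, genes above the median intensity only, the replicate block, fits of 2 groups, and leaving out each array.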

Additional observations from a re-analysis of the deposited data

Results flagged for a closer look

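The extreme sample of each group of 4 arrays was tested against its neighbours for the 7 members and selected relatives, 30 groups in all, and chance flags about 1 in 20 such groups. Cd74 in control array 5, at 384.17, stood above the other 3 control arrays (gap over range 0.836, above Dixon's critical value at 95%). Ciita in RBPJdel array 2, at 100.12, stood above the other 3 RBPJdel arrays (0.908). For H2-Aa the difference N1c_RBPJdel minus RBPJdel was 0.22 ± 0.14 log2 and the difference N1c minus control −0.32 ± 0.13 (SE), with each array of the first group above the mean of RBPJdel and each N1c array below the mean of control. The gap of 0.54 log2 was not tested, since H2-Aa was chosen with these values known, neither difference was called, and the first also differs by sorter. The cluster that names both H2-DMb1 and H2-DMb2, which entered no comparison, averaged 129.04 in N1c_RBPJdel, against 81.637 in control.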

How the results depend on the processing

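Over 110 results and 2268 alternative values, 2115 kept their side of the threshold (or stayed within 1.5 times, for counts, or within the spread between arrays, for members), 108 lost a call, 4 gained one and 38 counts moved. Of 722 values for the members, 21 changed sign, in 7 of their differences, the widest of them H2-DMa in N1c against control (−0.32 to 0.09). Of the tested genes, 3 values changed sign, none of them called: H2-Ob in RBPJdel against control without control replicate 3 (−0.0048 to 0.16 over all left-out arrays), and H2-Oa in N1c_RBPJdel against N1c without N1c_RBPJdel replicate 2 (−0.16) or N1c replicate 1 (−0.01; highest 0.29). Genes called in N1c_RBPJdel against control numbered 1141 with quantile and 1033 with cyclic loess normalization, 3767 with the replicate block and 406 with only the 2 groups fitted. Against N1c they numbered 1187 among genes above the median, 3699 with the block and 561 with 2 groups; against RBPJdel 192, 2107 and 98 under the same settings. The fit above the median leaves out H2-Ea, H2-Aa, H2-Ab1 and Ciita, so members called were then 2 against control, 2 against N1c and 0 against RBPJdel. Members called were also 2 against control with 2 groups fitted, and 2 (cyclic loess) and 3 (block) against RBPJdel. The replicate block gave 494 genes in N1c against control, or 388 with only the 3 shared numbers (an alternative chosen after seeing the data). Leaving out each array gave 217 to 383 genes in N1c against control, 17 to 26 in RBPJdel against control, 530 to 3088, 903 to 3058 and 76 to 1890 in N1c_RBPJdel against control, N1c and RBPJdel, and 0 to 0, 0 to 0, 1 to 4, 2 to 5 and 1 to 1 members. The lowest gene counts of N1c_RBPJdel against the 3 groups came without N1c_RBPJdel array 1 and the highest without array 2. Members called against control also fell to 1 without control array 2 or 3. Where no construction is named, the cause was not tested. The difference of H2-Ea in N1c_RBPJdel against control stayed between 1.10 and 1.38 log2 and that of Cd74 between 0.85 and 1.27. Detection above background was not analysed here, which limits what low intensities show.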
